A study of Mus musculus with 2 samples.

Results

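The mitochondrial ribosomal protein genes are the nuclear genes whose symbols start with Mrpl or Mrps followed by a number, for proteins of the large and the small subunit of the ribosome inside mitochondria. They were chosen by symbol alone, as printed on the array or as the current symbol of the probe's RefSeq entry. They number 78 of the 21962 genes named on the array. All 78 were measured, meaning that at least 1 probe was well above background in at least 1 channel on each array, and so were 14285 genes in all. The cells were G1E-ER-GATA-1, 1 mouse erythroid line that lacks its own GATA-1 and carries a GATA-1 fused to the oestrogen receptor, so that oestradiol starts red cell maturation. LMO2 siRNA cells were set against control siRNA cells, both with 24 h of b-estradiol after transfection. Total RNA of both was hybridised together to 2 arrays, with LMO2 siRNA in Cy3 and control siRNA in Cy5 each time, so the dye and the siRNA cannot be told apart. The labels do not say whether the 2 arrays hold separate cultures, so the p-values measure only the spread between these arrays. In loess values that spread is mostly pooled over all genes, with 27.3 degrees of freedom from the prior and 1 from the arrays. A dye effect or a drift with array row that both arrays share is not part of it.

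The target itself was lower. Lmo2, the LIM-only adaptor protein of the erythroid GATA-1 complex, had normalised intensities of 1735 and 1573 in LMO2 siRNA cells, against 6114 and 6361 in control siRNA cells. That is a log2 ratio of -1.92 ± 0.14 (SD, n = 2 arrays), or 3.77-fold lower. The labels call the line murine ES cells of erythroid tissue, and all 9 erythroid markers were measured, among them Klf1 at 27046 and 25078 in LMO2 siRNA cells and 28102 and 26935 in control siRNA cells. Their summed intensity without the 2 saturated globins was 90962 and 79843 in LMO2 siRNA cells, against 95768 and 87944 in control siRNA cells. The 5 measured of 6 megakaryocyte markers summed to 2817 and 2853 in LMO2 siRNA cells, against 2063 and 1968 in control siRNA cells. Among them Gp1ba rose by the strict rule given below, at 1.18, and Gp9 fell, at -0.31, and their part in the members' ratios was not tested. Mast cell markers summed to 486 and 494 in LMO2 siRNA cells, against 468 and 459 in control siRNA cells, and granulocyte and macrophage markers to 614 and 659 in LMO2 siRNA cells, against 584 and 619 in control siRNA cells (5 of 6 measured in each list). By the strict rule 1 of the first (Cpa3) and 2 of the second (Ltf and Cd68) rose. Of 6 pluripotent stem cell markers, Nanog, Sox2 and Zfp42 were not well above background, Pou5f1 had 91 and 76 in LMO2 siRNA cells and 87 and 79 in control siRNA cells, and Dppa5a, which rose, had 175 and 182 in LMO2 siRNA cells and 138 and 136 in control siRNA cells. Whole cells were compared, so fewer cells of a type and less RNA per cell cannot be told apart.

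Mitochondrial ribosomes translate only the messenger RNAs encoded in the mitochondrial genome, which make subunits of the respiratory chain and of ATP synthase. All their proteins are made in the cytosol from nuclear genes and imported. Many are homologues of bacterial ribosomal proteins, while others exist only in mitochondrial ribosomes. Maturing erythroid cells depend on mitochondria for haem and iron-sulphur cluster synthesis before the organelles are removed.

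Of the 78 members, 2 rose with LMO2 siRNA by the strict rule used here, Mrps17 and Mrpl52, both negative with median centring in place of loess, and no member fell by it. The rule writes rose or fell only of an unsaturated gene called in a single direction at an adjusted p under 0.05 in 3 sets of values. These were loess values (background-corrected log2 ratios smoothed against brightness within each array), the same with the scanner's own position factor divided out, and the scanner's processed signals. Of all measured genes, 6.63% rose and 2.54% fell by the same rule, against 2.56% and 0 of the 78 members. At an unadjusted p under 0.05 from limma in all 3 sets, 10 members (12.8%) were higher and 1 (1.28%) lower, beside 2288 and 1567 of the 14285 measured genes. In loess values alone 22 members were called higher and 33 lower, which is 28.2% and 42.3%, beside 24.5% and 27.4% of all measured genes. With the position factor divided out, 15 were higher and 12 lower, or 19.2% and 15.4%, beside 20.3% and 18.0% of all measured genes. In processed signals 2 were higher and 0 lower by limma, beside 8.39% and 3.44% of all measured genes. At an unadjusted p under 0.05 these were 12 (15.4%) and 2 (2.56%), beside 21.1% and 16.9% of all measured genes. Median centring in place of loess moved the median of all measured genes to -0.40, and then 0 members were called higher and 77 lower, beside 2.96% and 64.5% of measured genes. The 17 members called in a single direction in both of the first sets, 10 higher and 7 lower, were 12.8% and 8.97% of members, beside 14.7% and 13.5% of genes.

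**Figure D1:**
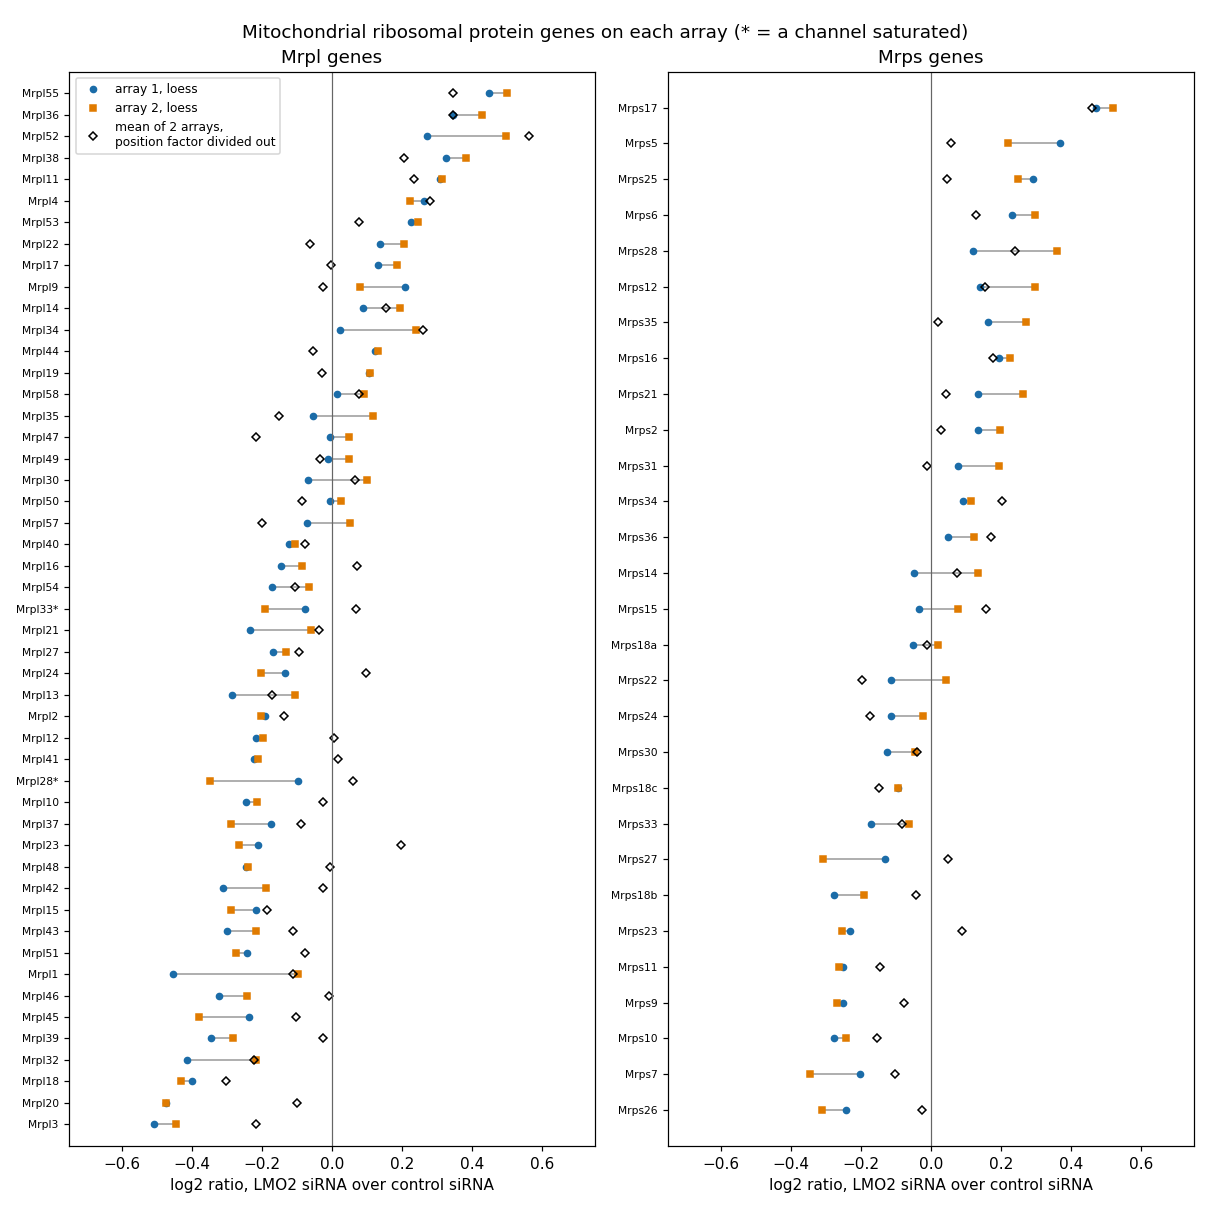
Log2 ratio of LMO2 siRNA over control siRNA (x axis) for each Mrpl gene (left) and Mrps gene (right), ordered by the mean loess value. Circles and squares are the loess values of arrays 1 and 2 and diamonds the mean over both with the position factor divided out. Loess means run from -0.48 for Mrpl3 to 0.50 for Mrps17, and many diamonds of the lower members sit nearer 0. A channel of Mrpl28 and of Mrpl33 was saturated, and their ratios give no fold.

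Mrps17 is the homologue of bacterial S17, a protein that binds the small subunit's RNA. Its normalised intensity was 7161 and 6826 in LMO2 siRNA cells, against 5165 and 4761 in control siRNA cells, so the channels did not overlap. The loess log2 ratio was 0.50 ± 0.03 (SD, n = 2 arrays; adjusted p = 1.64e-08), 1.41-fold higher. It was 0.46 with the position factor divided out (adjusted p = 1.02e-04) and 0.49 in processed signals (adjusted p = 0.0407). Its other probe read 0.29. Mrpl52, found only in mitochondrial ribosomes, had 18556 and 16819 in LMO2 siRNA cells, against 15385 and 11924 in control siRNA cells. The arrays differed more for this gene, with log2 ratios of 0.27 and 0.50 and a mean of 0.38 ± 0.16 (SD; adjusted p = 3.62e-06), 1.30-fold higher. It was 0.56 with the position factor divided out (adjusted p = 6.7e-05) and 0.61 in processed signals (adjusted p = 0.0432). The second Mrpl52 probe gave -0.06 in loess values and 0.22 with the position factor divided out, so the 2 probes differed in sign in the first. With median centring in place of loess both genes turned negative, Mrps17 to -0.20 and Mrpl52 to -0.36, each above that setting's median of all measured genes.

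At the lower end stood Mrpl18 and Mrpl3, called lower in loess and position-divided values and not in processed signals. Mrpl18, homologue of the bacterial protein L18 that binds 5S ribosomal RNA, had 14205 and 12454 in LMO2 siRNA cells, against 18752 and 16788 in control siRNA cells. Its log2 ratio was -0.42 ± 0.02 (SD, n = 2; adjusted p = 3.48e-07) in loess values. It was -0.30 with the position factor divided out (adjusted p = 0.00126) and -0.26 in processed signals (adjusted p = 0.0831). Its other probes read -0.58 and -0.24. Mrpl3, homologue of bacterial L3 near the peptidyl transferase centre, had 9252 and 8594 in LMO2 siRNA cells, against 13163 and 11700 in control siRNA cells. This gave -0.48 ± 0.05 (SD, n = 2; adjusted p = 3.41e-08) in loess values, -0.22 with the position factor divided out (adjusted p = 0.0114) and -0.18 in processed signals (adjusted p = 0.175). Its 3 other usable probes read -0.25, -0.15 and 0.13, so Mrpl3 differed in sign between probes and Mrpl18 did not.

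Probe sequences of Mrpl18 are shown because its probes lie far apart on the array and kept to a single sign. They are the 60-base probes A_52_P649258 at array row 117 and A_52_P495243 at row 507, beside its brightest probe at row 190. The capitals mark 12 bases that both hold, and the match stops short of the end of A_52_P495243.
Mrpl18 probe A_52_P649258: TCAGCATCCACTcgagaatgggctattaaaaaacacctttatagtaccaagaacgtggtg
Mrpl18 probe A_52_P495243: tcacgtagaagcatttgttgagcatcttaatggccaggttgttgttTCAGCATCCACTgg
The Mrpl18 probes gave -0.58 and -0.24 in loess values, and -0.40 and -0.45 once the position factor was divided out.

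Promoters of Mrps17, Mrpl52, Mrpl18 and Mrpl3 are shown as those of the members described above. They were taken from RefSeq windows of build GRCm38.p6, 250 bases before to 50 after the start, which were given for 69 of the 78 members. Each window was searched on both strands for CCGGAAG, bound by ETS factors such as GABPA, for the palindromic NRF-1 consensus, and for AAGATGGCG, bound by YY1, factors known to drive nuclear genes of mitochondria. The ETS letters were in 26 of 69 members, or 37.7%, beside 18.9% of measured genes with a window and 9.93% of all genes with one. The NRF-1 motif was in 3 members (4.35%, beside 2.09% of measured genes and 1.07% of all). The YY1 letters were in 8 (11.6%, beside 3.29% and 1.64%). Capitals mark matches in the 4 promoters below, and no overlap between different motifs occurred in them.
Mrps17 promoter, chr5:129715247-129715546, plus strand: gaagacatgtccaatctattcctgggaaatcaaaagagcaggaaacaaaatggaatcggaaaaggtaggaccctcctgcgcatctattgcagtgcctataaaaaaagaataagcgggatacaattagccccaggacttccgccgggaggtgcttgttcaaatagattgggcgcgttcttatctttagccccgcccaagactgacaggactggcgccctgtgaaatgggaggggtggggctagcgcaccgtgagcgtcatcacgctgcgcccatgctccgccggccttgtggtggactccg
Mrpl52 promoter, chr14:54426659-54426958, plus strand: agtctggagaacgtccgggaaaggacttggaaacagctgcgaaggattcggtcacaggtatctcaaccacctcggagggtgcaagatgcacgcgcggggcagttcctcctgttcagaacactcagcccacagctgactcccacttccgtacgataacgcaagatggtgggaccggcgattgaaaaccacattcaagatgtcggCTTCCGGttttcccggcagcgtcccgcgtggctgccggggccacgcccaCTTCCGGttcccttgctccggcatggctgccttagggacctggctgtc
Mrpl18 promoter, chr17:12916042-12916341, minus strand: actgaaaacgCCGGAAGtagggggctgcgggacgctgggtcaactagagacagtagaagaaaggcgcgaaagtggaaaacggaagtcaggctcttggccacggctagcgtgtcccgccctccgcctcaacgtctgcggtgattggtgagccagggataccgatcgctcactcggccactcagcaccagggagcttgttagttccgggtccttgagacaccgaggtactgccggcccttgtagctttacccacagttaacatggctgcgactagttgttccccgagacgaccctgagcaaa
Mrpl3 promoter, chr9:105053018-105053317, plus strand: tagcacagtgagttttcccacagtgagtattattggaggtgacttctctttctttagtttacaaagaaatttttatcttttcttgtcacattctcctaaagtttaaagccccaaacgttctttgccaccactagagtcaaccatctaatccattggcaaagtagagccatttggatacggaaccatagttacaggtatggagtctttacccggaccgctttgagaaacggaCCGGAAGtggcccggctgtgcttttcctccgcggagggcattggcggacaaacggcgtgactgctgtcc
Mrpl52 held the ETS letters 2 times, both on the other strand, starting 47 bases before and 2 bases after the gene's start. Mrpl18 held them 240 bases and Mrpl3 19 bases before the start, while Mrps17 held none of the 3 motifs in this window. Ratios of either sign occurred with and without the ETS letters. Members with the ETS letters had a median log2 ratio of -0.02 with the position factor divided out and ranged from -0.30 to 0.56. The 43 members without them had a median of -0.03 and ranged from -0.22 to 0.46.

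**Figure D2:**
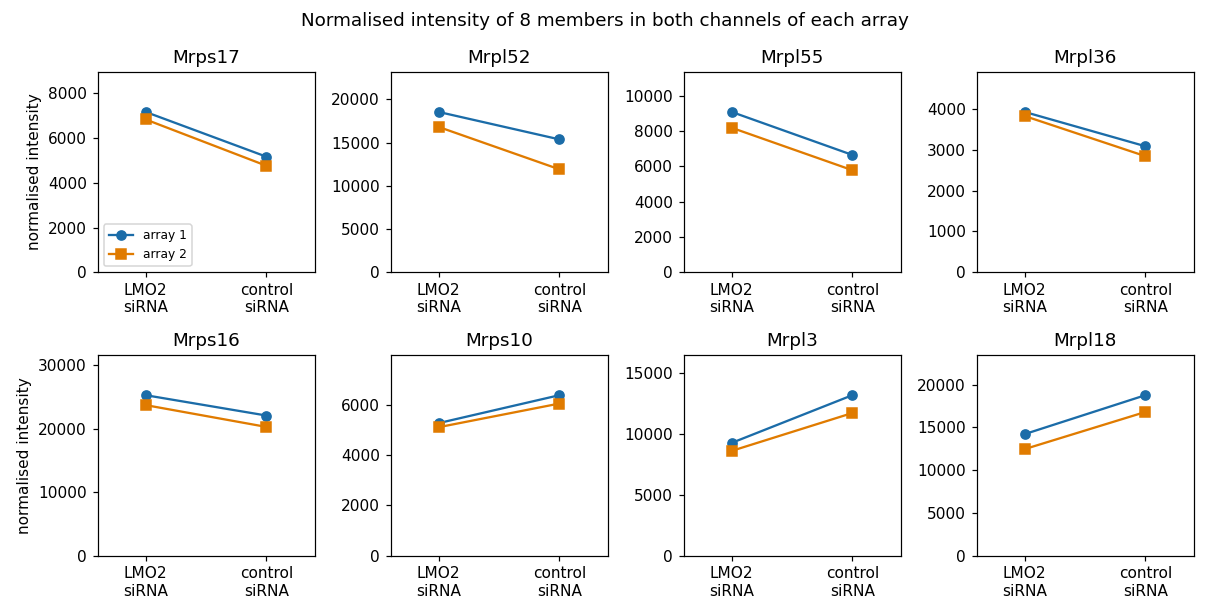
Normalised intensity (y axis, linear from 0, a scale of its own for each gene) of 8 members in LMO2 siRNA and control siRNA channels, with a line for each array. In these loess values both arrays were brighter in LMO2 siRNA cells for Mrps17, Mrpl52, Mrpl55, Mrpl36 and Mrps16, and dimmer there for Mrps10, Mrpl3 and Mrpl18. With median centring the ratios of all these 8 members are negative, and the median of all measured genes is -0.40.

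In the large subunit, 51 proteins by place in the ribosome, 11 genes were called higher and 25 lower in loess values, and 9 and 7 with the position factor divided out. The median log2 ratio was -0.12 in loess values and -0.03 with the position factor divided out. In the small subunit, 26 proteins, 11 were called higher and 8 lower in loess values, and 5 and 5 with the position factor divided out, with medians of 0.03 and 0.04. Proteins with a bacterial homologue (46) had 16 genes called higher and 20 lower in loess values, and 11 and 10 with the position factor divided out. The 31 proteins classed as mitochondria-specific had 6 and 13, and then 3 and 2. Mrps18a and Mrps18b were counted in this class, although both are related to bacterial S18. No test of the difference between these classes was made. Of all measured genes, 24.5% were called higher and 27.4% lower in loess values. With the position factor divided out these shares were 20.3% and 18.0%.

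Among large subunit genes, Mrpl55 and Mrpl36 were called higher in loess and position-divided values and were negative with median centring, at -0.23 and -0.27. The median of all measured genes with median centring was -0.40. Mrpl55 had 9070 and 8176 in LMO2 siRNA cells, against 6642 and 5778 in control siRNA cells, a loess log2 ratio of 0.48 ± 0.04 (SD, n = 2) and 0.35 with the position factor divided out. Mrpl36 had 3926 and 3826 in LMO2 siRNA cells, against 3087 and 2845 in control siRNA cells, or 0.39 ± 0.06 and then 0.35. In processed signals both just missed the threshold, with adjusted p = 0.0535 for Mrpl55 and 0.0599 for Mrpl36. Mrpl11 of the stalk base (0.31 and 0.23), Mrpl4 of the exit tunnel (0.24 and 0.28), Mrpl38 (0.35 and 0.20) and Mrpl14 (0.14 and 0.15) completed the large subunit genes called higher in both sets, with Mrpl52 above, and were negative with median centring. Lower in both sets beside Mrpl3 and Mrpl18 were Mrpl32, a protein cut by the mitochondrial m-AAA protease before assembly (-0.32 and -0.22, from -0.41 and -0.22 on the arrays in loess values), Mrpl15 (-0.25 and -0.19) and Mrpl13 (-0.20 and -0.17). Mrpl20, whose bacterial homologue is needed for assembly of the large subunit, had 15998 and 14812 in LMO2 siRNA cells, against 22209 and 20582 in control siRNA cells. Its log2 ratio was -0.47 on each array, and -0.10 with the position factor divided out (adjusted p = 0.170). Mrpl23, at the mouth of the exit tunnel, was called in opposite directions, at -0.24 in loess values and 0.20 with the position factor divided out.

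In the small subunit, Mrps16 and Mrps28 joined Mrps17 as higher in both of these sets of values. With median centring these 2 were at -0.56 and -0.48, beside a median of -0.40 for all measured genes. Mrps16 had 25306 and 23741 in LMO2 siRNA cells, against 22102 and 20305 in control siRNA cells, a loess log2 ratio of 0.21 ± 0.02 (SD, n = 2) and 0.18 with the position factor divided out. Mrps28 read 0.12 and 0.36 on the arrays and 0.24 with the position factor divided out. Mrps10 (-0.26 and -0.15) and Mrps11 (-0.26 and -0.15) were the lower ones. Mrps10 had 5272 and 5109 in LMO2 siRNA cells, against 6381 and 6048 in control siRNA cells. Mrps5, Mrps25 and Mrps6 were called higher in loess values only. Mrps5, homologue of bacterial S5, read 0.37 and 0.22 on the arrays and 0.06 with the position factor divided out. Its other usable probes read 0.02, 0.03 and -0.08 in loess values. Mrps25 read 0.29 and 0.25, and 0.05 with the position factor divided out (other probe -0.005 in loess values). Mrps6 read 0.23 and 0.30, and then 0.13. Mrps26 (-0.24 and -0.31 on the arrays), Mrps7 (-0.20 and -0.34) and Mrps9 (-0.25 and -0.27) were called lower in loess values only. With the position factor divided out they were at -0.02, -0.10 and -0.08.

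None of the 9 members picked for a particular role passed the strict rule. Mrps12, the homologue of S12 in the decoding centre, read 0.14 and 0.30 on the arrays, was called higher in loess values and had adjusted p = 0.0534 with the position factor divided out. Mrpl12, homologue of the L7/L12 stalk that recruits translation factors, read -0.22 and -0.20, and 0.01 with the position factor divided out. Mrpl58, a peptidyl-tRNA hydrolase built into the large subunit that rescues stalled ribosomes, read 0.01 and 0.09 and was not called in any of the 3 sets. Bacterial S18 has 3 mammalian relatives, of which Mrps18b was called lower in loess values. Mrps18a, placed in the large subunit, read -0.05 and 0.02, and Mrps18b read -0.28 and -0.19 (other probe 0.04). Mrps18c read -0.09 on each array (other probe 0.12) and -0.15 with the position factor divided out, a value then called lower. Mrps30, another large subunit protein despite its symbol, read -0.13 and -0.05. Mrpl41 read -0.22 and -0.21, and 0.02 with the position factor divided out. Mrps36, now known as a part of the 2-oxoglutarate dehydrogenase complex rather than of the ribosome, read 0.05 and 0.12, and 0.17 with the position factor divided out (adjusted p = 0.0283). The brightest probes of Mrpl28 and Mrpl33 reached saturation in control siRNA cells, the first on each array and the second on 1, so these probes give no fold. Mrpl28 had 42451 and 36229 in LMO2 siRNA cells, against 45370 and 46106 in control siRNA cells. Mrpl33 had 42926 and 37101 in LMO2 siRNA cells, against 45302 and 42372 in control siRNA cells. The other Mrpl28 probe, dimmer and unsaturated, read -0.41 and -0.58 on the arrays in loess values. With the position factor divided out it was at -0.21, and the saturated Mrpl28 probe at 0.06. The other Mrpl33 probe, far dimmer and unsaturated, had a mean of 0.03 in loess values.

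The calls in loess values followed the place of the spot on the array. Over the 78 members, the mean loess log2 ratio went with array row at Pearson r = 0.72 and Spearman rho = 0.74. With the position factor divided out these were 0.04 and 0.04, and in processed signals 0.03 and 0.03. All measured genes had r = 0.45 with row in loess values and 0.02 with the position factor divided out, a description of spots that share the same 2 arrays. Of the 48 members printed in rows 5 to 256, 3 were called higher and 33 lower in loess values, and 8 and 7 with the position factor divided out. Their median log2 ratio was -0.22 in the first and -0.03 in the second. Of the 30 printed in rows 285 to 502, 19 were called higher and 0 lower in loess values, and 7 and 5 with the position factor divided out. Their medians were 0.16 and 0.01. At limma's unadjusted p under 0.05, loess values gave 20 higher and 1 lower of these 30. Over all rows, 26.7% and 29.7% of measured genes were so, and 24.5% and 27.4% were called higher and lower. With the position factor divided out 20.3% and 18.0% were called. Shares of all genes within the same rows were not counted. All 33 loess calls of lower thus lay in rows 5 to 230 of 532, and 7 of the 33 kept that call with the position factor divided out. Of the 22 loess calls of higher, 10 kept it.

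**Figure D3:**
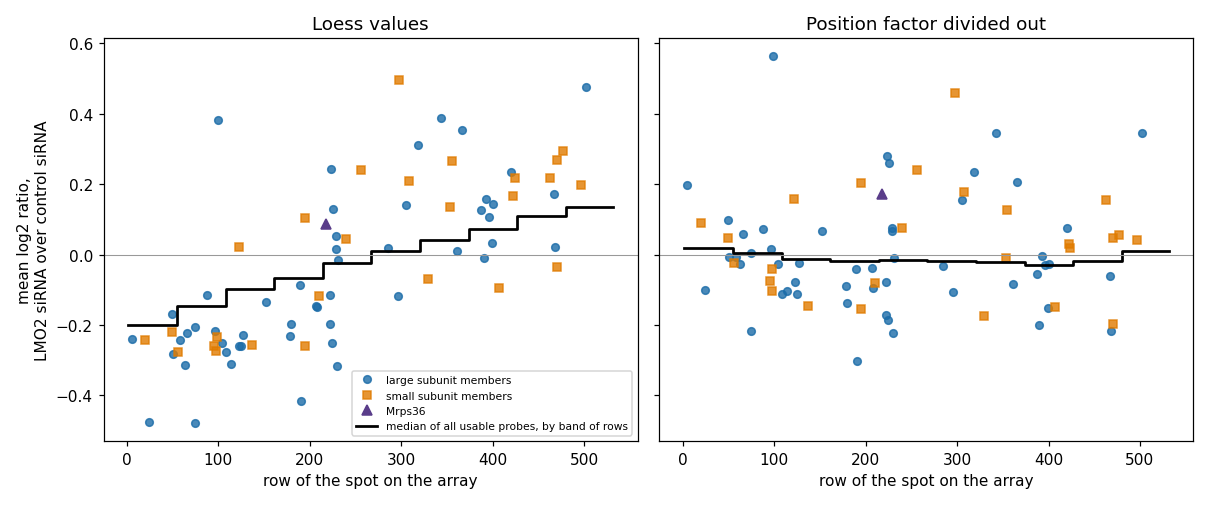
Mean log2 ratio of LMO2 siRNA over control siRNA for each member (y axis) against the array row of its spot (x axis), in loess values (left) and with the position factor divided out (right). The black steps are the median of all usable probes in 10 bands of rows, which climb from -0.20 to 0.13 on the left and lie between -0.03 and 0.02 on the right.

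Probes of a single member gave the same picture. Several usable probes exist for 33 members, and in loess values they differed in sign for 22 of the 33, against 13 with the position factor divided out. The median range between the probes of a member was 0.27 log2 units in loess values and 0.14 with the position factor divided out, and it was narrower in the second for 30 of 33. All probes had a single sign in both sets of values for 8 members. Those higher were Mrps17, Mrps6 and Mrps36. Those lower were Mrpl18, Mrpl42, Mrpl57, Mrps7 and Mrps9. Of the members whose probes differed, Mrpl38 had its brightest probe at 0.33 and 0.38 on the arrays and its others at -0.25 and -0.32. Mrps26 had -0.24 and -0.31 for its brightest probe and 0.30 for its other.

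More members had probes that differed in sign. Mrpl1 of the L1 stalk read -0.45 and -0.10 on the arrays for its brightest probe, with others at 0.09 and -0.02. Mrpl15 read -0.22 and -0.29, with its other probe at 0.27. Mrpl45, which ties the ribosome to the inner membrane, read -0.24 and -0.38, with its other probe at 0.01. These members show arrays or probes that disagree by as much as the ratio itself. Mrpl43 read -0.30 and -0.22 (other probe 0.10), and Mrpl27 read -0.17 and -0.13 (other probe 0.05). Mrpl40 read -0.12 and -0.11 (others -0.11 and 0.13), and Mrps33 read -0.17 and -0.06 (others -0.27 and 0.17). Mrps23 read -0.23 and -0.25 (other probe 0.11), and Mrps15 read -0.03 and 0.08 (other probe -0.13). None of these 6 was called in the same direction in loess and position-divided values. Mrps2 read 0.14 and 0.20, with others at -0.21 and -0.09. Mrpl35 read -0.05 and 0.12, with others at -0.22 and -0.25. Mrpl47 read -0.01 and 0.05 with its other probe at -0.14, and was called lower at -0.22 with the position factor divided out. Mrpl49 stayed at -0.01 and 0.05, with its others at -0.01 or nearer 0.

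**Figure D4:**
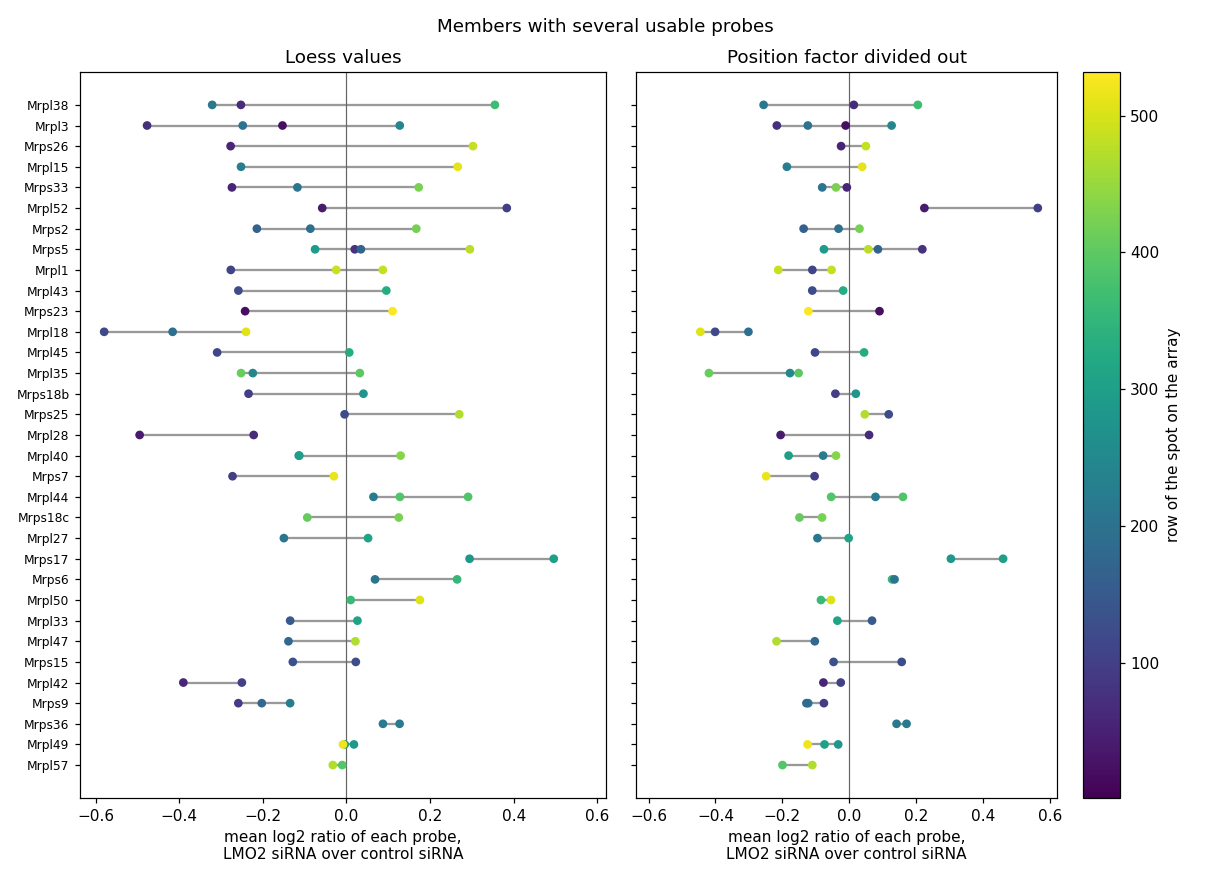
Mean log2 ratio of LMO2 siRNA over control siRNA (x axis) of each usable probe of the 33 members with several, in loess values (left) and with the position factor divided out (right), coloured by array row. Lines join the probes of a member. The lines are shorter on the right for 30 of 33 members, and the Mrpl18 and Mrps17 probes each keep to a single side of 0 in both.

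In loess values their median log2 ratio was -0.08, against -0.02 for all measured genes, and all 78 lay within 0.5 log2 units of 0, as did 91.4% of measured genes. With the position factor divided out the medians were -0.02 and -0.01, and 98.7% of members lay within 0.5, against 94.7% of measured genes. The middle 50% of members then ran from -0.10 to 0.08, and of all measured genes from -0.11 to 0.11. The median member was at -0.09 on array 1 and -0.03 on array 2 in loess values, so leaving out array 1 moved it by more than 1.5 times. With median centring the medians were -0.72 for members and -0.40 for all measured genes. Both arrays gave a single sign for 68 of 78 members in loess values and 57 with the position factor divided out.

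**Figure D5:**
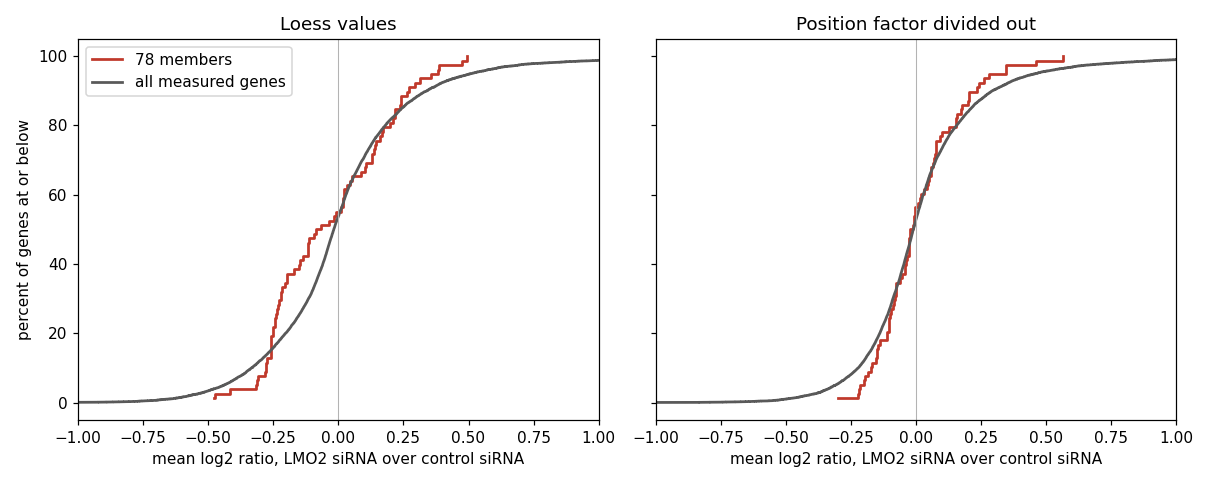
Cumulative percent of genes (y axis) at or below each mean log2 ratio of LMO2 siRNA over control siRNA (x axis) for the 78 members and all 14285 measured genes, in loess values (left) and with the position factor divided out (right). On the left the members' curve stands above that of all genes between -0.25 and 0, and on the right the curves lie close, with fewer members at the far ends.

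In the related lists 2 genes passed the strict rule, both of ribosome assembly. Among 24 measured genes of mitoribosome assembly and ribosomal RNA modification (25 listed), 1 rose and 1 fell by the strict rule, against 6 called higher and 8 lower in loess values alone. Of all measured genes, 6.63% rose and 2.54% fell by the strict rule, and 24.5% and 27.4% were called in loess values. Noa1, a GTPase needed for assembly, had 1016 and 942 in LMO2 siRNA cells, against 657 and 618 in control siRNA cells. It rose by 0.62 ± 0.01 (SD, n = 2 arrays; adjusted p = 2.17e-10), 1.54-fold, with 0.47 once the position factor was divided out and 0.07 with median centring. Mrm1, which methylates the large ribosomal RNA of mitochondria, had 5580 and 4941 in LMO2 siRNA cells, against 8905 and 9190 in control siRNA cells. It fell, with -0.78 ± 0.16 (SD, n = 2; adjusted p = 6.04e-12), 1.72-fold lower, and read -0.49 with the position factor divided out. Of 5 mitoribosomal proteins without an Mrpl or Mrps symbol, Chchd1 (0.32) was called higher and Gadd45gip1 (-0.19) lower in loess values, and the ratios were 0.08 and -0.07 with the position factor divided out.

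Of 11 measured mitochondrial translation factors (12 listed), 5 were called higher and 2 lower in loess values, and 6 and 0 with the position factor divided out (6 and 1 at limma's unadjusted p under 0.05, beside 23.7% and 23.3% of all measured genes). Tufm, the elongation factor that brings aminoacyl-tRNA, had 7345 and 6400 in LMO2 siRNA cells, against 5114 and 4492 in control siRNA cells, a log2 ratio of 0.52 in loess values and 0.27 with the position factor divided out. Mrrf, the ribosome recycling factor, had 5018 and 4838 in LMO2 siRNA cells, against 4101 and 3737 in control siRNA cells, or 0.33 and 0.24. The list's median was 0.04 in loess values and 0.15 with the position factor divided out. Of 12 genes for mitochondrial DNA and RNA upkeep, 4 were called higher and 3 lower in loess values, and 3 and 2 with the position factor divided out. For both lists, the shares of all measured genes were 24.5% higher and 27.4% lower in loess values, and then 20.3% and 18.0%. Lrpprc and Slirp, partner proteins that stabilise mitochondrial messenger RNA, read 0.54 and 0.50 in loess values and 0.36 and 0.47 with the position factor divided out. In processed signals they missed the threshold, with adjusted p = 0.0602 for Lrpprc and 0.0585 for Slirp. With median centring Tufm (-0.17), Mrrf (-0.34), Lrpprc (-0.16) and Slirp (-0.20) turned negative. Each stayed above that setting's median of all measured genes, -0.40.

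Of 9 nuclear regulators of mitochondrial genes, 5 were called higher and 3 lower in loess values, and 4 and 3 with the position factor divided out. All measured genes had 24.5% and 27.4%, and then 20.3% and 18.0%. Processed signals gave 0 calls by limma, with 4 higher and 4 lower at an unadjusted p under 0.05. Those 4 and 4 stood beside 21.1% and 16.9% of all measured genes. Esrra, an orphan receptor that drives oxidative genes, had 1676 and 1570 in LMO2 siRNA cells, against 1153 and 1116 in control siRNA cells, a log2 ratio of 0.52 in loess values, 0.36 with the position factor divided out and -0.08 with median centring. Its coactivator Ppargc1b read 0.38 and then 0.24. The 3 lower genes, named after their values were seen, were Gabpa and Gabpb1, the subunits of the factor that binds the ETS letters, and Nrf1. Gabpa had 1618 and 1570 in LMO2 siRNA cells, against 2113 and 1980 in control siRNA cells (-0.36 in loess values, -0.26 with the position factor divided out). Gabpb1 read -0.38 and -0.27, and Nrf1 read -0.35 and -0.33. Yy1, for the factor that binds the YY1 letters, was called higher in both sets, at 0.23 and 0.29. So was Myc, at 0.32 and 0.27. With median centring Yy1 (-0.42) and Myc (-0.35) were negative, beside a median of -0.40 for all measured genes. Probes named for mitochondria-encoded messenger RNAs were found for 2 of 13, COX2 and CYTB, both with a saturated channel, so the transcripts that mitochondrial ribosomes translate have no fold here.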

How the data were processed

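Control siRNA (Cy5) and LMO2 siRNA (Cy3) RNA was hybridised to 2 Agilent arrays, per the labels. The deposited files hold each spot's intensity per channel from Feature Extraction 9.1.3.1, per the file headers. The scanner's processed signals, its position factor for each spot and channel (a ratio) and its log10 ratios of red over green are deposited too. The deposited series table held those log10 ratios within 0.005, with a median of 0 on each array. For the array design, the genome build was not stated in what was used here. The arrays share 1 slide, so no batch could be tested. In the 4 channels, 55.8% to 68.2% of gene spots were well above background, and the number of arrays limits the precision.

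Mean signals and local background were corrected with normexp (offset 50), normalised by loess within each array with control spots at weight 0 (limma 3.58.1, R 4.3.3), and turned to LMO2 siRNA over control siRNA. For position-divided values the factor was divided out of the background-corrected signals before loess. Processed signals were centred on the median of usable probes. A gene is its brightest usable probe. Mean log2 ratios were tested against 0 by limma's moderated test (1 degree of freedom from the arrays, and from the prior 27.3 in loess values, 8.74 in position-divided values and 2.36 in processed signals), adjusted by Benjamini-Hochberg over 14285 genes, with a threshold of 0.05. The code was tested on simulated data. Symbols came from RefSeq's GRCm38.p6 gene table, which served names alone, and 3 members carry older symbols on the array.

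The members and lists were chosen with earlier results of these data known. Values per array are given for members passing the strict rule, the 4 highest and 4 lowest Mrpl and Mrps genes, saturated members, members whose probes differ in sign, and 9 members picked for their roles. Mrps16 and Mrps28 are given per array outside this rule. Of each related list, genes passing the strict rule and the 2 furthest from 0 are named. Other nuclear regulators were named after their values were seen. The alternatives were the offset, the position factor, processed signals, median centring, filters on dim, saturated and outlier-flagged spots, the mean over probes, an intensity trend in the variance prior, the deposited table, a test against 1.5-fold and each array alone.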

Additional observations from a re-analysis of the deposited data

How the results depend on the processing

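The count of members called higher, 22 in loess values, was 20 to 22 with offset 10, without a filter on dim probes, with both channels well above background, without saturated or outlier-flagged spots, with the mean over probes and with an intensity trend, and 15 with the position factor divided out. It was 2 in processed signals, 2 in the deposited series table, 0 with median centring and 0 in the test against 1.5-fold. The count called lower, 33, was 26 to 33 under the first of these settings, 12 with the position factor divided out, 0 in processed signals, 0 in the series table, 77 with median centring and 0 in the test against 1.5-fold. The median log2 ratio of members, -0.08, was -0.018 with the position factor divided out, 0.0019 in processed signals, -0.026 in the series table and -0.72 with median centring, where the median of all measured genes was -0.40. Left out in turn, the arrays gave medians from -0.09 to -0.03. Signs turned as follows for the 40 members given per array under the rule above, which leaves out Mrps16 and Mrps28. Beyond the position factor's own removal the cause was not tested. With the position factor divided out, Mrpl12 to 0.0058, Mrpl28 to 0.059, Mrpl33 to 0.068, Mrpl41 to 0.016, Mrpl47 to -0.22 and Mrps23 to 0.090 turned. In processed signals these were Mrpl12 to 0.032, Mrpl28 to 0.12, Mrpl33 to 0.13, Mrpl41 to 0.053, Mrps23 to 0.10 and Mrps26 to 0.0051. In the series table they were Mrpl12 to 0.0037, Mrpl28 to 0.094, Mrpl33 to 0.10, Mrpl41 to 0.025 and Mrps23 to 0.072. With the mean over probes they were Mrpl15 to 0.0069, Mrpl35 to -0.15, Mrpl38 to -0.073, Mrps2 to -0.045 and Mrps26 to 0.013, and without saturated probes Mrpl33 to 0.026. With median centring they were Mrpl35 to -0.67, Mrpl36 to -0.27, Mrpl38 to -0.24, Mrpl47 to -0.58, Mrpl49 to -0.68, Mrpl52 to -0.36, Mrpl55 to -0.23, Mrpl58 to -0.63, Mrps12 to -0.43, Mrps15 to -0.65, Mrps17 to -0.20, Mrps2 to -0.44, Mrps25 to -0.29, Mrps36 to -0.60, Mrps5 to -0.34 and Mrps6 to -0.32. Each log2 ratio already pairs LMO2 siRNA with control siRNA on 1 array, so the test against 0 is a paired one. Signal over background limits the dim probes, and 2 arrays limit every test here.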
